A study of Rattus norvegicus with 11 samples.

Results

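The genes described here are the vomeronasal receptors of type 1 (Vom1r) and type 2 (Vom2r) and the trace amine-associated receptors (Taar), read in rat trigeminal ganglia (TRG). A probe of the array belonged to the set when its transcript accession led to a RefSeq symbol starting with Vom1r, Vom2r or Taar, a rule that uses no measured value, and the families were taken up with earlier results of these data known. This gave 131 of 24684 probes, of which 47 were Vom1r, 67 Vom2r and 17 Taar, each gene with 1 probe and each probe with 1 spot. The ganglia came from male Wistar rats 7 days after 50 µl complete Freund's adjuvant (CFA, killed mycobacteria in paraffin oil, 1 mg/ml) had been placed under the skin of one whisker pad. The 6 CFA ganglia were of the injected side (rats 1, 2, 3, 5, 6 and 8), and the 5 contralateral ganglia were of the other side of rats 1, 2, 3, 5 and 6, so that the control ganglia also came from inflamed animals, and no saline-injected rat was among the arrays. RNA depleted of rRNA was labelled with Cy3 by random priming and hybridised to 1-colour lncRNA and mRNA arrays, 1 ganglion per array. The question was which of these receptor transcripts differed between the CFA and the contralateral side.

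The vomeronasal organ is a pheromone-sensing pouch at the base of the nasal septum. Its apical neurons use V1R receptors with the G protein subunit Gnai2, its basal neurons use V2R receptors with Gnao1, and both open the cation channel Trpc2. V1R proteins have a short extracellular end and are known for small volatile and steroid ligands, while V2R proteins carry a long extracellular domain that binds peptides and proteins. Most TAARs are olfactory receptors of the main nasal epithelium that detect volatile amines through Gnal, Adcy3 and the channel subunit Cnga2, whereas Taar1 is known from brain, where it responds to tyramine and phenethylamine. The trigeminal ganglion holds the cell bodies of facial sensory neurons, satellite glia and Schwann cells, and is not a place where vomeronasal neurons lie.

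The sequences around the annotated starts of 3 gene pairs are shown because the pairs recur in the results: Vom2r48 and Vom2r49 are adjacent protein-coding genes that differed in opposite directions, Vom2r72 and Vom2r73 both passed the threshold in the same direction, and Taar8b and Taar8c are near-copies of which 1 was detected. Each window runs 5′ to 3′ over 300 bases, 250 before and 50 from the annotated start, and is taken from RefSeq on the rat assembly GRCr8. The windows of Vom2r48, chr4:158347414-158347713 (plus strand), and Vom2r49, chr4:158419420-158419719 (plus strand), follow with the ATG at the annotated start in capitals, and in a global alignment they were identical at 222 bases (74.0%).
Vom2r48: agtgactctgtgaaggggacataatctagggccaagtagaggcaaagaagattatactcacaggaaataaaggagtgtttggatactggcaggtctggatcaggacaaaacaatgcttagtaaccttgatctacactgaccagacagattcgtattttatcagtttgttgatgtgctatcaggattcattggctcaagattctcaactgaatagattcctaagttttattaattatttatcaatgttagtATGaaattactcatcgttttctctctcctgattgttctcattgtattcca
Vom2r49: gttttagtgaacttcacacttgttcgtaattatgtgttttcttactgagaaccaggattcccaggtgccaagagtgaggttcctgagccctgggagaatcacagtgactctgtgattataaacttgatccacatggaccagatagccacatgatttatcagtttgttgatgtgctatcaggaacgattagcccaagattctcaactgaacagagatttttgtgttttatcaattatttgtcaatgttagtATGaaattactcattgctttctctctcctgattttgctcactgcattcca
The windows of Vom2r72, chr14:1039253-1039552 (minus strand), and Vom2r73, chr14:959395-959694 (minus strand), follow with the bases that differ between them in capitals, and 290 bases (96.7%) were identical.
Vom2r72: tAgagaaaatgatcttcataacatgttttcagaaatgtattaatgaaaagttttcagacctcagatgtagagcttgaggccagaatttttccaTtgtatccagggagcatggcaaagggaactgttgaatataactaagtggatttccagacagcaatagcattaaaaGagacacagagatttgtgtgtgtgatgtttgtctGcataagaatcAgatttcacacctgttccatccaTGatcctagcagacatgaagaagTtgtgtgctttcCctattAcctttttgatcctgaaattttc
Vom2r73: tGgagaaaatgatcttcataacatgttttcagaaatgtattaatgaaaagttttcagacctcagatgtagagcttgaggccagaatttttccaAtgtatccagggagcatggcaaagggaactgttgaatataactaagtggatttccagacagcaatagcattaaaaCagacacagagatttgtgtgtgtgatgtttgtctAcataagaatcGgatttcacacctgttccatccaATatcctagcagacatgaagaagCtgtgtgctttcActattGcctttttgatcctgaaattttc
The windows of Taar8b, chr1:23124056-23124355 (plus strand), and Taar8c, chr1:23108843-23109142 (plus strand), are written in the same way and shared 283 bases (94.3%).
Taar8b: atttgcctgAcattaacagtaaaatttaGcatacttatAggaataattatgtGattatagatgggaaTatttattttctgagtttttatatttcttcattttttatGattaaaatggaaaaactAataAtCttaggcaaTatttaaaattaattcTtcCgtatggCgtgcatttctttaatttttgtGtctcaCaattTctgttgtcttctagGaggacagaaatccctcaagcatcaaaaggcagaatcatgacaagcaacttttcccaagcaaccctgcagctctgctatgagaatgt
Taar8c: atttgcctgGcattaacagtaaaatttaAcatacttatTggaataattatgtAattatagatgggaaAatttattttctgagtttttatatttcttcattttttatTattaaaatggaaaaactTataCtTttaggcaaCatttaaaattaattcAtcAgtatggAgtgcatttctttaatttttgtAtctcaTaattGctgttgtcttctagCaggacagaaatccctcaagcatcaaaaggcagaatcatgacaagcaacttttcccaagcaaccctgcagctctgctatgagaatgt
The array's probe sequences were not used here, so how far a probe also binds the near-copy of its gene was not tested, and the values of such pairs are uncertain to that extent.

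Of the 120 members with a window, 82 (68.3%) had ATG at the annotated start, against 9.0% of 33469 windows of the whole table, so for these members the window lies upstream of the coding start. The letters TATAAA, on either strand, stood in 41 member windows (34.2%) and in 14.2% of all windows. The palindrome TAATTA, the core that many homeodomain factors bind, stood in 28 member windows (23.3%) and in 5.36% of all windows. Per family, TATAAA stood in 45.2% of Vom1r, 28.6% of Vom2r and 26.7% of Taar windows, and TAATTA in 19.0%, 25.4% and 26.7%. A match of letters is a description and not a binding site.

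Most of the receptor probes were dim or not detected. The scanner software flags a spot as well above background when its signal clearly exceeds that of its surroundings, and a probe is called detected on an array where it has that flag. Detection held on all 11 arrays for 39 members (29.8%), on some for 53 and on none for 39 (29.8%). Among the 15321 mRNA probes 79.6% were detected everywhere and 6.07% nowhere. By family, 18 of 47 Vom1r probes (38.3%), 15 of 67 Vom2r probes (22.4%) and 6 of 17 Taar probes (35.3%) were detected everywhere, while 10, 26 and 3 were detected nowhere. By mean level over the 11 arrays, 101 members (77.1%) lay in the dimmest of 3 equal parts of all probes, 30 in the middle part and 0 in the brightest. The 1157 odorant receptor probes, read the same way, had 22.7% detected everywhere, and the 33 taste receptor probes 24.2%.

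Detection varied between arrays and slides. The arrays lay on 5 slides scanned on 3 days. Slide 1 held the contralateral ganglion of rat 3, slide 2 the CFA ganglion of rat 1 with the contralateral ganglia of rats 5 and 6, slide 3 the contralateral ganglia of rats 1 and 2, slide 4 the CFA ganglia of rats 2 and 3, and slide 5 those of rats 5, 6 and 8. Slides 1, 2 and 3 shared a scan day, and slides 4 and 5 each had their own. The members detected numbered 74 to 76 on slides 1 and 3, 46 to 53 on slide 2, 46 and 54 on slide 4 and 55 to 71 on slide 5. The mean over arrays was 44.4% ± 7.68 of members on the CFA side (SD, n = 6) and 49.2% ± 11.2 on the contralateral side (SD, n = 5), and the sides did not differ beyond that spread (two-sided exact permutation test, p = 0.403). Over all 24684 probes the share also varied, from 75.1% to 87.7%. Slide 2 was the only slide with both sides.

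**Figure D1:**
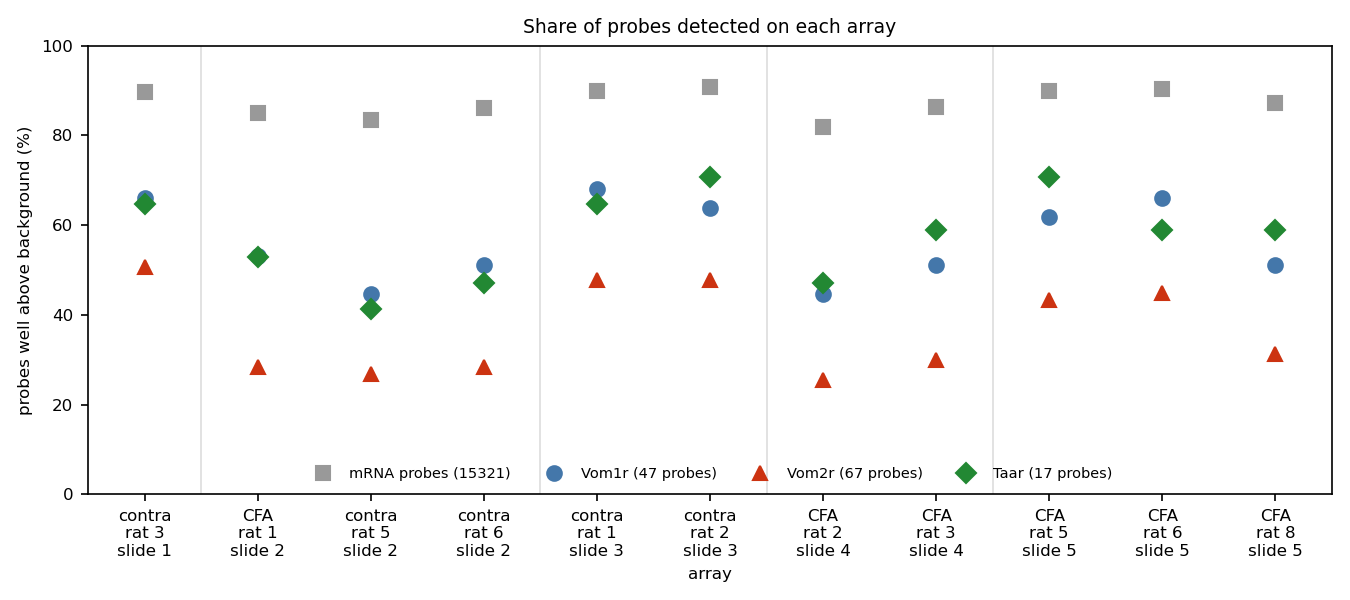
Percentage of probes detected (y axis, %) on each of the 11 arrays (x axis, ordered by slide) for Vom1r, Vom2r, Taar and all mRNA probes. The receptor families lie between 25.4% and 70.6% and mRNA probes between 81.8% and 90.7%, and on slides 1 and 3, which hold contralateral ganglia only, all 3 families are higher than on slide 2, which holds both sides.

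The threshold of the study, an unadjusted p of 0.05 or less with a fold change over 2, was passed by 10 members, 8 higher and 2 lower on the CFA side. That is 7.63% of the 131 members, against 2.02% of all 24684 probes (1.15% higher, 0.863% lower). All 10 lay in the dimmest part, which held 101 members and where 4.25% of probes passed. Both percentages of probes include probes averaged over several spots, while each member has 1 spot. Of probes of the dimmest part with 1 spot, 129 were higher and 0 lower of 1050 in the first of 4 equal bands of array rows. These counts were 21 and 15 of 1057 in the second band. They were 1 and 9 of 1074 in the third, and 3 and 111 of 1081 in the last. Odorant receptor probes passed in 7.43% and taste receptor probes in 21.2%. After Benjamini-Hochberg adjustment over all probes 0 members passed 0.05 in limma, as did 0.0% of all probes, and the smallest adjusted p of a member was 0.184. At an unadjusted p of 0.05 or less, whatever the fold, limma gave 28 members (8 higher and 20 lower, 21.4%) against 10.8% of all probes (4.02% higher, 6.75% lower). The values of the sides did not overlap for 6 members (4.58%) against 1.2% of all probes. The median log2 fold change was -0.22 over Vom1r, -0.10 over Vom2r, -0.25 over Taar and -0.04 over all probes. In ganglia analysed whole, fewer cells of a type and less RNA per cell cannot be told apart.

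Levels below are log2 normalised intensities, in which values near 1 are the bottom of the scale, and differences are log2 of CFA over contralateral with the standard error (SE) of the limma fit over 6 and 5 arrays. Of the 47 Vom1r genes, 4 were past the threshold, all of them higher on the CFA side. Vom1r7 had the smallest p of the 131 members. Its level was 0.99 in rat 1, 0.99 in rat 2, 1.33 in rat 3, 1.42 in rat 5 and 1.16 in rat 6 on the contralateral arrays and 2.05 to 3.77 with a median of 2.97 on the CFA arrays. All 6 CFA arrays were above all 5 contralateral arrays. The difference was 1.76 (SE 0.29, limma p = 7.47e-05, adjusted p = 0.184, exact permutation p = 0.00433), and it was 1.69 within slide 2. Since it was detected on 2 CFA arrays and no contralateral array, and the bound that this sets is under 1, no fold is given for Vom1r7. Without the CFA array of rat 1 its adjusted p was 0.0497, and over the other alternative settings it was higher.

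Vom1r62 was the only member past the threshold that was detected on all 11 arrays. The contralateral arrays read 2.95 in rat 1, 3.56 in rat 2, 4.49 in rat 3, 4.60 in rat 5 and 4.46 in rat 6, and the CFA arrays read 4.71 to 5.35 with a median of 5.12. The 2 arrays of slide 3 were the lowest, and no contralateral array reached the CFA range. The difference was 1.03 (SE 0.29, limma p = 0.00476, adjusted p = 0.312, exact permutation p = 0.00216) over all arrays and 0.53 within slide 2. With the rat as a block it was 1.00, just under a fold of 2, so the call was lost there, as it was without contralateral rat 1 or 2 or CFA rat 5 or 8. Vom1r101 read 0.99 in rat 1, 1.54 in rat 2, 4.01 in rat 3, 4.92 in rat 5 and 4.63 in rat 6 on the contralateral side and 4.39 to 5.27 with a median of 5.08 on the CFA side. The 2 slide 3 arrays stood at the bottom of the scale, while rats 5 and 6 on slide 2 lay inside the CFA range. Its difference was 1.78 (SE 0.68, limma p = 0.0251, adjusted p = 0.431, exact permutation p = 0.0130), against 0.43 within slide 2 and 1.72 with the rat as a block, where the call was lost, as it was without contralateral rat 1 or 2.

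Vom1r94 showed 4.68 in rat 1, 1.35 in rat 2, 2.65 in rat 3, 4.63 in rat 5 and 4.46 in rat 6 on the contralateral arrays, and 4.72 to 5.05 with a median of 4.86 on the CFA arrays. The separation of the sides was complete, but contralateral rats 1, 5 and 6 lay just under the CFA range, and rats 2 and 3 carried most of the difference. It came to 1.33 (SE 0.55, limma p = 0.0353, adjusted p = 0.448, exact permutation p = 0.00216), and to 0.29 within slide 2. The call was lost with the rat as a block (1.31) and when any of 7 of the 11 arrays was left out, among them contralateral rats 2 and 3. Vom1r101 and Vom1r94 were each detected on 6 CFA and 3 contralateral arrays.

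Of the 67 Vom2r genes, 4 were higher and 2 lower past the threshold. The contralateral arrays of Vom2r48 gave 0.99 in rat 1, 2.07 in rat 2, 3.28 in rat 3, 4.56 in rat 5 and 4.65 in rat 6, while the CFA arrays gave 4.79 to 5.09 with a median of 4.97. All CFA arrays were above all contralateral ones, and the contralateral arrays of slide 2 stood 2.49 above the mean of those on slides 1 and 3. The difference was 1.84 (SE 0.59, limma p = 0.00978, adjusted p = 0.366, exact permutation p = 0.00216) over 11 arrays, and 0.21 within slide 2. The probe was detected on 6 CFA and 3 contralateral arrays. Its genomic neighbour Vom2r49, whose window is shown above, went the other way. Contralateral levels of Vom2r49 were 3.13 in rat 1, 2.66 in rat 2, 3.41 in rat 3, 3.96 in rat 5 and 3.51 in rat 6, and CFA levels were 1.25 to 2.78 with a median of 2.33. CFA rats 1 and 8 lay just above the lowest contralateral value, that of rat 2, and the other CFA arrays below it. The difference was -1.08 (SE 0.29, limma p = 0.00358, adjusted p = 0.282, exact permutation p = 0.0108), and -0.95 within slide 2. Detection held on all 5 contralateral arrays and none of the 6 CFA arrays, which bounds Vom2r49 at least 1.06-fold lower on the CFA side when each CFA array is set at its own lowest detected signal. With the single higher floor used below for all arrays, every Vom2r49 value lay at the floor. Its call was lost without contralateral rat 5 or CFA rat 2.

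Vom2r72 and Vom2r73, near-copies at their starts, have spots at array rows 63 and 61. Vom2r72 read 0.99 in rat 1, 0.99 in rat 2, 0.99 in rat 3, 1.05 in rat 5 and 1.94 in rat 6 contralaterally, and 1.21 to 2.78 with a median of 2.63 on the CFA side. It was detected on 0 of the 11 arrays, so the difference of the values as measured, 1.14 (SE 0.30, limma p = 0.00316, adjusted p = 0.278, exact permutation p = 0.00866), is given without a fold. Vom2r73 read 0.99 in rat 1, 0.99 in rat 2, 2.39 in rat 3, 3.99 in rat 5 and 3.31 in rat 6 contralaterally, and 2.95 to 3.75 with a median of 3.56 on the CFA side. Contralateral rat 5 lay above the CFA range and rat 6 inside it, with rats 1 and 2 at the bottom of the scale. The difference was 1.16 (SE 0.51, limma p = 0.0454, adjusted p = 0.459, exact permutation p = 0.0758) over all arrays but -0.03 within slide 2, where its direction turned. The probe was detected on 4 CFA arrays and 0 contralateral arrays, and no fold is given. The call of Vom2r73 was also lost with the rat as a block (1.12) and when any of 8 of the 11 arrays was left out, all but contralateral rats 5 and 6 and CFA rat 2.

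Vom2r67 read 3.29 in rat 1, 1.35 in rat 2, 1.24 in rat 3, 0.96 in rat 5 and 2.37 in rat 6 on the contralateral arrays against 2.87 to 3.44 with a median of 3.23 on the CFA arrays. Contralateral rat 1 lay inside the CFA range and the others below it. The difference was 1.34 (SE 0.37, limma p = 0.00422, adjusted p = 0.298, exact permutation p = 0.0130), and 1.54 within slide 2, with detection on 2 CFA arrays and 1 contralateral array. Vom2r2 was lower, with 3.44 in rat 1, 3.49 in rat 2, 2.32 in rat 3, 3.71 in rat 5 and 4.02 in rat 6 on the contralateral side and 0.95 to 2.74 with a median of 2.24 on the CFA side. Contralateral rat 3 lay inside the CFA range, and CFA rats 1 and 8 were lowest. Its difference was -1.42 (SE 0.41, limma p = 0.00532, adjusted p = 0.321, exact permutation p = 0.0173), and -2.88 within slide 2, with detection on 1 CFA array and 3 contralateral arrays.

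**Figure D2:**
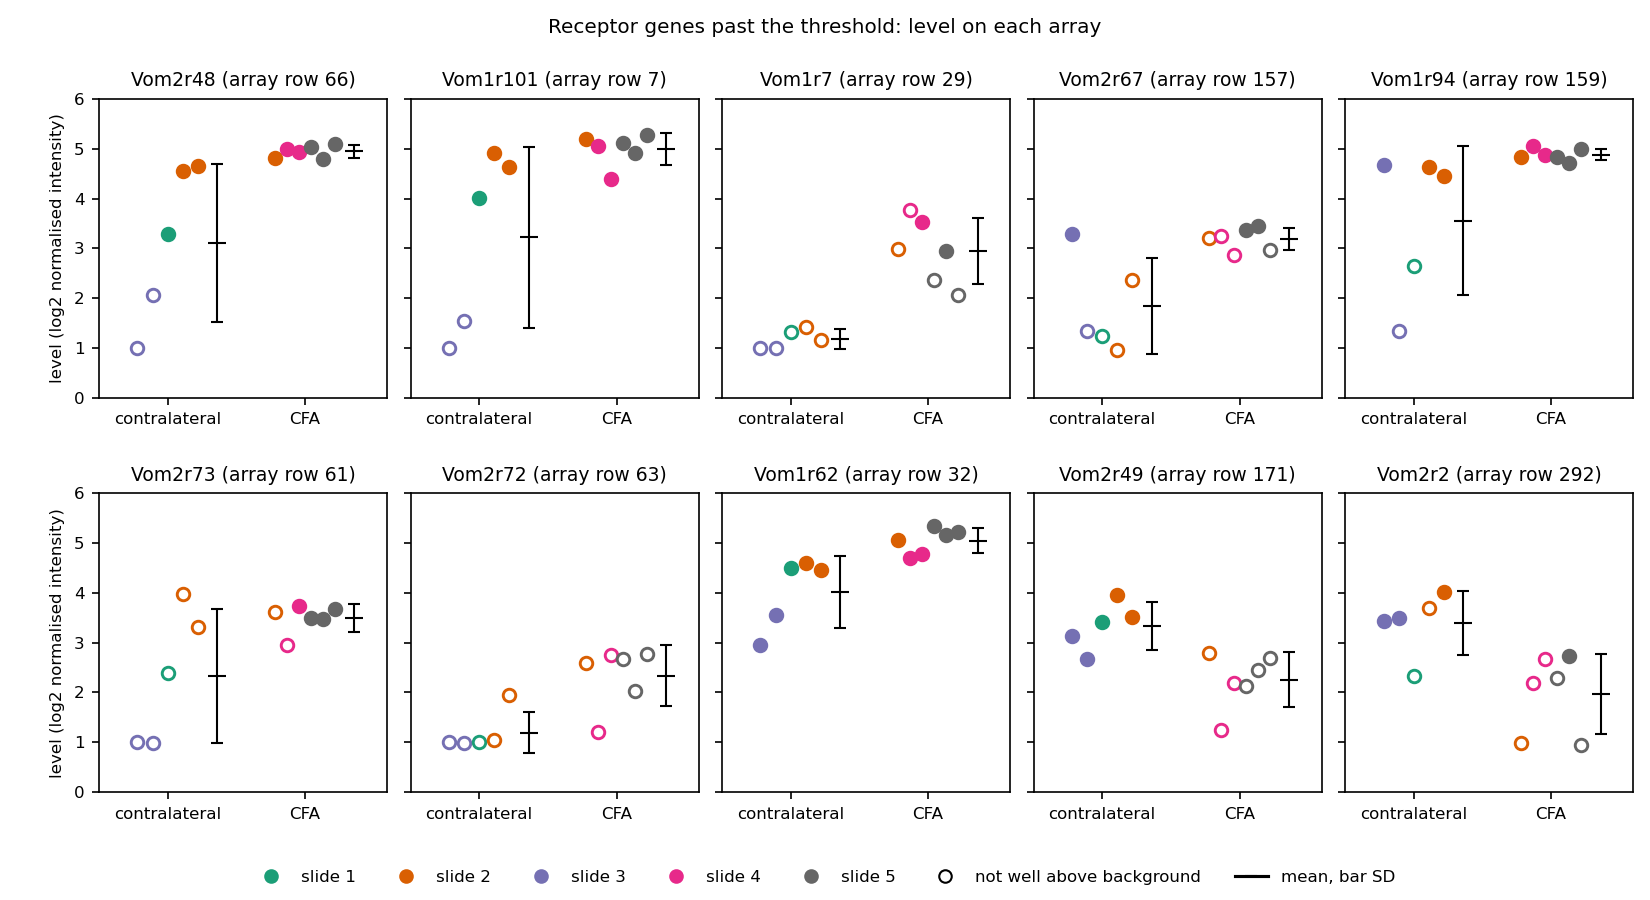
Level (y axis, log2 normalised intensity) on each array for the 10 receptor genes past the threshold, by side (x axis), coloured by slide, with open circles where the probe was not detected and black bars for mean and SD (5 contralateral, 6 CFA arrays). For Vom2r48, Vom1r101 and Vom2r73 the 2 contralateral arrays of slide 2 lie between 3.31 and 4.92, close to the CFA arrays, and the 2 arrays of slide 3 lie at 2.07 or lower.

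The slide moved with the side for these genes. In 7 of the 8 higher members the contralateral arrays of slide 2 were above those of slides 1 and 3, by more than 1 on the log2 scale in Vom1r101, Vom2r48, Vom2r73 and Vom1r94. Within slide 2, where 1 CFA array stood against 2 contralateral arrays, the difference was over 1 in 3 of the 8, Vom1r7, Vom2r67 and Vom2r72. With slide as a block, an estimate that rests on the 3 arrays of slide 2, 9 members passed the threshold, of which 2, Vom1r7 and Vom2r2, were among the 10. Of all 24684 probes 632 passed with that block, and 35 of them were among the 498 that passed without a block. With scan day as a block 9 members passed, of which 3 were among the 10 (Vom1r7, Vom2r2 and Vom2r72). Of all probes 444 passed with scan day as a block, and 37 of them were among the 498. Between the contralateral arrays of slide 2 and those of slides 1 and 3, which are 1 side, 35 of the 131 members differed by more than 1. The same count over all probes was not made, so it is not known to be particular to these receptors. The part of the slide in the differences between sides was not tested beyond these values.

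The size of the differences depended on the signal used and on its background subtraction, and the part of either alone was not tested. From the spots' median signal without background correction, 0 of the 131 members passed the threshold, and all 10 genes kept their direction. In that setting 24 members had an unadjusted limma p of 0.05 or less, as did 1931 of all 24684 probes. Vom2r48 then differed by 0.51 instead of 1.84, Vom1r101 by 0.47 instead of 1.78, Vom1r7 by 0.30 instead of 1.76, and Vom2r2 by -0.24 instead of -1.42. When values were floored at the lowest signal of a detected spot, taken as the highest of the 11 arrays, 0 passed as well. Over all probes the count also fell, from 498 to 47 without background correction and to 130 with the floor. Both settings shrink the log2 differences of dim probes, so a count of 0 does not show that the sides were alike. Of the 10 genes, 5 were detected on every array of their brighter side, namely Vom1r62, Vom1r94, Vom1r101, Vom2r48 and Vom2r49.

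**Figure D3:**
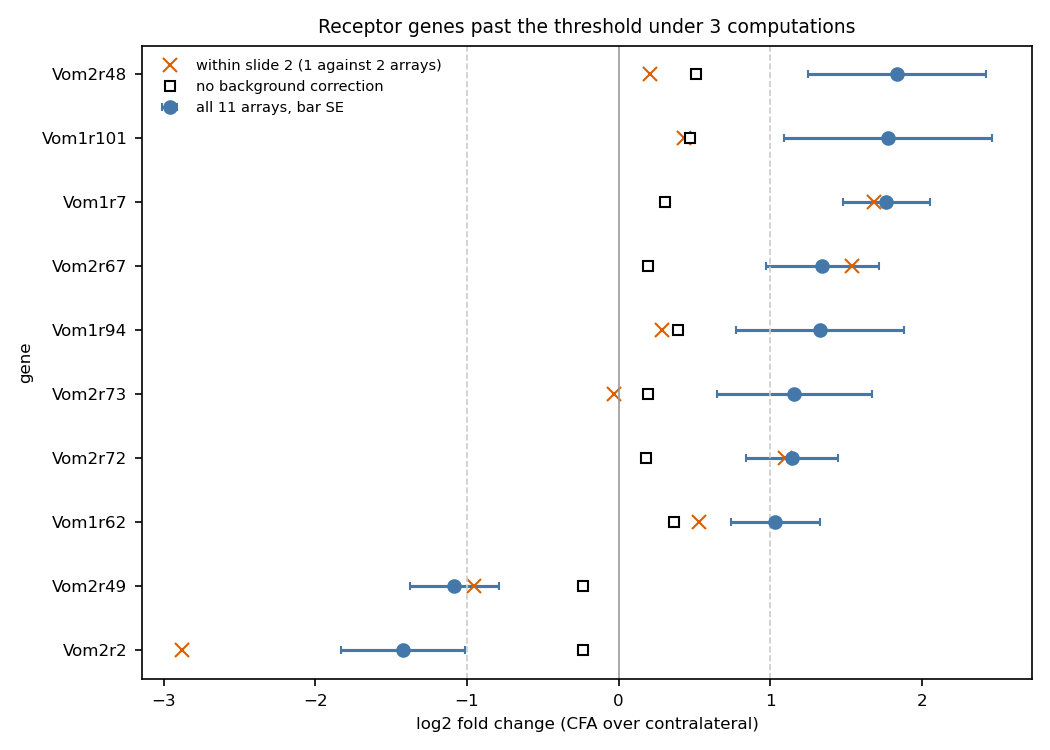
Log2 fold change of CFA over contralateral (x axis) for the 10 receptor genes past the threshold (y axis), over all 11 arrays with the SE of the fit, within slide 2 (crosses) and without background correction (squares), with dashed lines at a fold of 2. Without background correction every value lies between -0.24 and 0.51, and within slide 2 Vom1r7, Vom2r67 and Vom2r72 stay above 1 while Vom2r73 lies at -0.03. Vom1r7, Vom2r67 and Vom2r72 were not detected on any array of slide 2.

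The difference between sides varied with the row of the spot on the array. Of the 8 higher members 6 had spots in rows 7 to 66, in the first of 4 equal bands of rows (rows 1 to 133), and the others, Vom2r67 and Vom1r94, at rows 157 and 159. The lower members Vom2r49 and Vom2r2 had rows 171 and 292. The median log2 fold change of the members was 0.20 over 34 probes in the first band, -0.09 over 33 in the second, -0.22 over 32 in the third and -0.32 over 32 in the last. Dim probes of any kind with 1 spot had medians of 0.22, -0.07, -0.17 and -0.29 in the same bands, and all probes 0.04, -0.04, -0.09 and -0.03. In the first band 12.3% of these dim probes were higher past the threshold and 0.0% lower, and in the last band 0.278% were higher and 10.3% lower. Across probes, which share arrays and are not independent, Pearson's r of row with log2 fold change was -0.65 over Vom1r, -0.38 over Vom2r, 0.08 over Taar and -0.25 over all probes. Vom1r members of the first band had a median of 0.77 over 11 probes.

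The row pattern was also present between arrays of the same side. Relative to its mean over all arrays, the median Vom1r probe of the first band stood at -0.80, -1.01 and -0.18 on contralateral rats 1, 2 and 3, and at 0.46 and 0.43 on contralateral rats 5 and 6. The CFA arrays ranged from -0.01 to 0.63. Across the 131 members, r of row with the difference between the contralateral arrays of slide 2 and those of slides 1 and 3 was -0.38, and with the difference between sides within slide 2 it was -0.06. With the row trend of each array removed in 3 parts by signal, 8 members passed the threshold (6 higher, 2 lower), and 7 of them were among the 10, while the other was Taar8a. Vom2r48 then differed by 1.61, Vom1r7 by 1.45 and Vom1r101 by 1.41. Vom1r62, Vom2r72 and Vom2r73 were no longer past it.

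**Figure D4:**
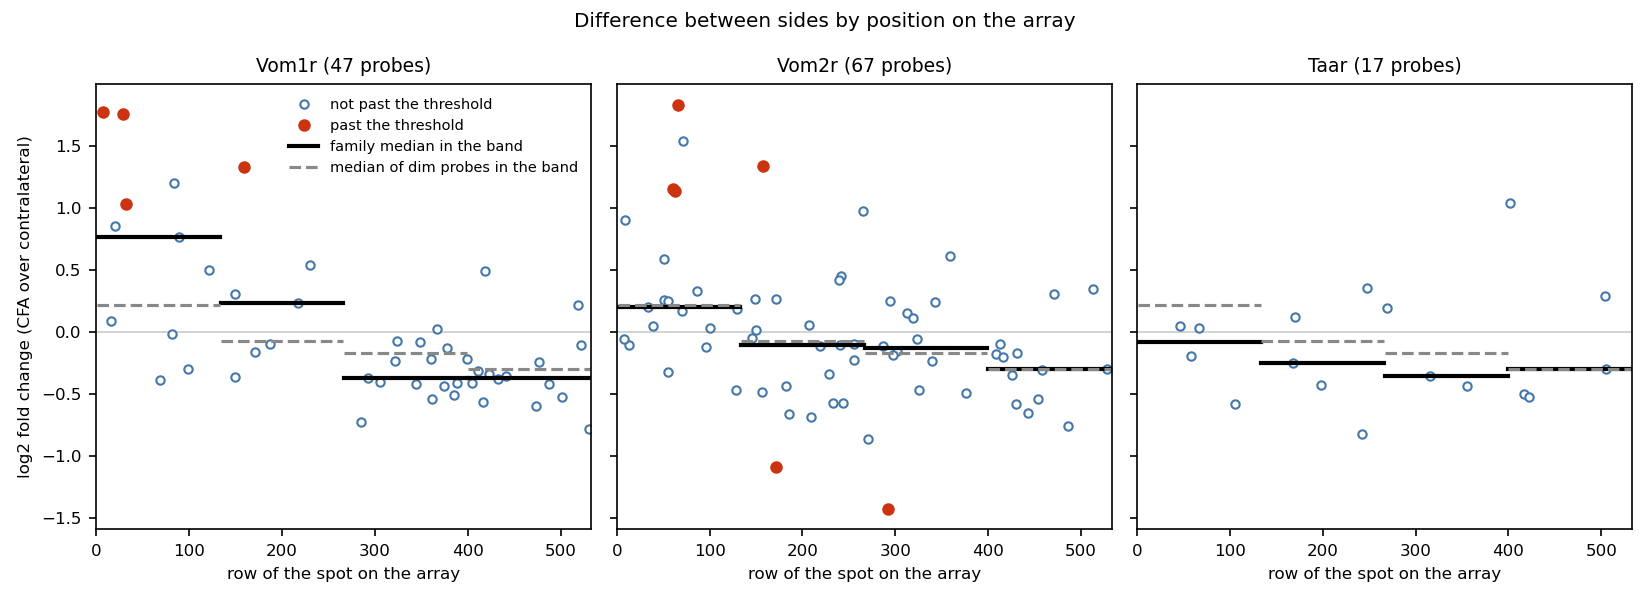
Log2 fold change of CFA over contralateral (y axis) against the row of the spot on the array (x axis) for the 47 Vom1r, 67 Vom2r and 17 Taar probes, with genes past the threshold filled, the family median in each band of rows as a solid line and the median of dim probes with 1 spot as a dashed line. The band medians descend from 0.77 to -0.37 in Vom1r and from 0.20 to -0.29 in Vom2r, and the dashed line from 0.22 to -0.29.

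Of the 39 receptors detected on all 11 arrays 26 had a negative difference, and only Vom1r62 and Vom2r80 differed by more than 1 in size. A negative difference was also held by 14187 of all 24684 probes, detected or not. Vom1r43 lay at 5.54 to 6.12 (median 5.58) on the contralateral side and at 4.80 to 5.42 with a median of 5.15 on the CFA side. The sides did not overlap, and the difference was -0.59 (SE 0.14, limma p = 0.00130, adjusted p = 0.239, exact permutation p = 0.00433), with -0.15 within slide 2. Vom1r67 differed by -0.39 (SE 0.11, limma p = 0.00644, adjusted p = 0.333, exact permutation p = 0.0108) and was lower on the CFA side in 5 of 5 rats, in each of which the sides lay on different slides. Its contralateral levels were 5.73 to 6.04 (median 5.81), and its CFA levels were 5.28 to 5.79 with a median of 5.45. Vom1r21 lay at 6.37 to 7.36 (median 6.57) contralaterally, with the highest value in rat 3, and at 6.05 to 6.46 with a median of 6.10 on the CFA side. The sides of Vom1r21 overlapped in the range from 6.37 to 6.46, and the difference was -0.52 (SE 0.17, limma p = 0.00973, adjusted p = 0.366, exact permutation p = 0.00649). Within slide 2 it was 0.00. These 3 genes did not reach a fold of 2. The median over the 18 Vom1r probes detected on every array was -0.22, and over all probes so detected it was -0.04.

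The 15 detected Vom2r probes had a median of -0.05. Vom2r63 differed by -0.54 (SE 0.20, limma p = 0.0227, adjusted p = 0.427, exact permutation p = 0.0152), from contralateral levels of 7.11 to 8.34 (median 7.43) and CFA levels of 6.76 to 7.27 with a median of 6.94. The contralateral value of rat 3 was the highest, and the sides overlapped. Vom2r47, Vom2r8 and Vom2r80 had the next smallest p among them and did not pass 0.05 before adjustment. Vom2r47 differed by 0.42 (SE 0.20, limma p = 0.0533, adjusted p = 0.468, exact permutation p = 0.0498), and Vom2r8 by -0.34 (SE 0.16, limma p = 0.0548, adjusted p = 0.468, exact permutation p = 0.0779). Vom2r80 was the widest of them, with 3.15 in rat 1, 4.30 in rat 2, 6.07 in rat 3, 7.62 in rat 5 and 7.26 in rat 6 on the contralateral arrays and 6.46 to 7.68 with a median of 7.34 on the CFA arrays. Contralateral rats 1, 2 and 3 were below every CFA array, and rats 5 and 6 on slide 2 were inside the CFA range. Its difference was 1.55 (SE 0.73, limma p = 0.0571, adjusted p = 0.470, exact permutation p = 0.0823), and 0.24 within slide 2, with its spot at row 71. Vom2r75, detected on none of the arrays, had sides that did not overlap, but at the bottom of the scale, 0.96 to 0.99 against 0.91 to 0.96.

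None of the 17 Taar genes passed the threshold in either direction in the main limma fit. In that fit 5 (29.4%) had an unadjusted limma p of 0.05 or less, all of them lower on the CFA side, against 10.8% of all probes (6.75% lower). With the row trend removed in 3 parts by signal, 5 again had such a p, as did 2112 of 24684 probes. Of these Taar7c, Taar7d and Taar8b were lower, and Taar1 and Taar8a higher. Taar7b (row 315), Taar3 (row 422) and Taar7e (row 505) then differed by -0.22, -0.24 and -0.08 and no longer had it. Taar1, the receptor known from brain, was detected on 0 of 11 arrays, with 0.99 in rat 1, 0.99 in rat 2, 0.99 in rat 3, 1.21 in rat 5 and 1.02 in rat 6 contralaterally and 1.03 to 1.96 with a median of 1.22 on the CFA side. Its difference was 0.29 (SE 0.17, limma p = 0.114, adjusted p = 0.527, exact permutation p = 0.108). Taar8b had the smallest p of the family. It read 4.01 in rat 1, 3.84 in rat 2, 3.59 in rat 3, 3.21 in rat 5 and 3.00 in rat 6 on the contralateral side, and 2.16 to 3.10 with a median of 2.79 on the CFA side. The CFA value of rat 1 overlapped the contralateral values of slide 2, and the difference was -0.82 (SE 0.22, limma p = 0.00324, adjusted p = 0.278, exact permutation p = 0.00649) over all arrays and -0.01 within slide 2. It was detected on 3 contralateral arrays and 1 CFA array. Its near-copy Taar8c was detected on none of the arrays, with a difference of 0.04 (SE 0.13, limma p = 0.780, adjusted p = 0.916, exact permutation p = 0.688).

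The 6 Taar genes detected on every array were Taar5 and 5 of the 7 Taar7 genes, a branch of closely related copies (Taar7b, Taar7c, Taar7d, Taar7e and Taar7h). Taar7d lay at 5.61 to 6.16 (median 5.99) on the contralateral side and at 5.25 to 5.72 with a median of 5.48 on the CFA side. The sides overlapped, the CFA side was lower in 5 of 5 rats, and the difference was -0.43 (SE 0.12, limma p = 0.00463, adjusted p = 0.307, exact permutation p = 0.00649). Taar7b differed by -0.36 (SE 0.13, limma p = 0.0173, adjusted p = 0.408, exact permutation p = 0.0260) and Taar7e by -0.30 (SE 0.13, limma p = 0.0384, adjusted p = 0.451, exact permutation p = 0.0368), again lower in 5 of 5 rats each. No rat had both sides on the same slide, so these counts of rats also compare slides. Within slide 2 the 3 genes gave -0.16, 0.20 and 0.10. Taar7h differed by -0.43 (SE 0.21, limma p = 0.0644, adjusted p = 0.481, exact permutation p = 0.0844) and Taar7c by -0.19 (SE 0.17, limma p = 0.304, adjusted p = 0.671, exact permutation p = 0.312). Taar7a was detected on 5 CFA and 3 contralateral arrays and differed by 0.20 (SE 0.76, limma p = 0.798, adjusted p = 0.924, exact permutation p = 0.866). Its contralateral arrays read 4.65 in rat 1, 4.86 in rat 2, 4.75 in rat 3, 1.57 in rat 5 and 2.58 in rat 6, and the CFA arrays read 1.36 to 4.59 with a median of 4.42. The 3 arrays of slide 2 were the lowest, from both sides. Taar7g, detected on 3 CFA and 2 contralateral arrays, differed by 0.13 (SE 0.36, limma p = 0.732, adjusted p = 0.896, exact permutation p = 0.740).

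Taar3, a receptor of primary amines, read 4.62 in rat 1, 4.46 in rat 2, 4.20 in rat 3, 4.37 in rat 5 and 4.72 in rat 6 on the contralateral side, and 3.61 to 4.64 with a median of 3.83 on the CFA side. CFA rat 1 overlapped the contralateral arrays while the other CFA arrays lay below them. The difference was -0.52 (SE 0.18, limma p = 0.0167, adjusted p = 0.406, exact permutation p = 0.0260), against 0.09 within slide 2. Taar5, known as a trimethylamine receptor, was detected on every array at 3.90 to 4.77 (median 4.35) contralaterally and 4.20 to 4.58 with a median of 4.38 on the CFA side, a difference of 0.05 (SE 0.14, limma p = 0.715, adjusted p = 0.889, exact permutation p = 0.729). Taar4, known for phenethylamine, differed by 0.36 (SE 0.43, limma p = 0.418, adjusted p = 0.737, exact permutation p = 0.463) with detection on 6 CFA and 3 contralateral arrays. Its 3 arrays on slide 2 read 4.21 or less, and its other arrays 4.80 or more. Taar8a differed by 1.04 (SE 0.51, limma p = 0.0634, adjusted p = 0.481, exact permutation p = 0.0952), with detection on 1 CFA array and no fold given. Its CFA levels were 4.31 in rat 1, 2.71 in rat 2, 1.03 in rat 3, 1.58 in rat 5, 1.96 in rat 6 and 3.15 in rat 8, against contralateral levels of 1.01 to 1.81 (median 1.42). CFA rats 3 and 5 lay inside the contralateral range, and within slide 2, where rat 1, the only detected array, stood against 2 contralateral arrays, the difference was 3.22. Taar2 differed by -0.50 (SE 0.44, limma p = 0.281, adjusted p = 0.656, exact permutation p = 0.318), Taar6 by -0.58 (SE 0.50, limma p = 0.276, adjusted p = 0.653, exact permutation p = 0.346) and Taar9 by -0.25 (SE 0.43, limma p = 0.581, adjusted p = 0.826, exact permutation p = 0.600). Each of these 3 was detected on at most 3 arrays.

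**Figure D5:**
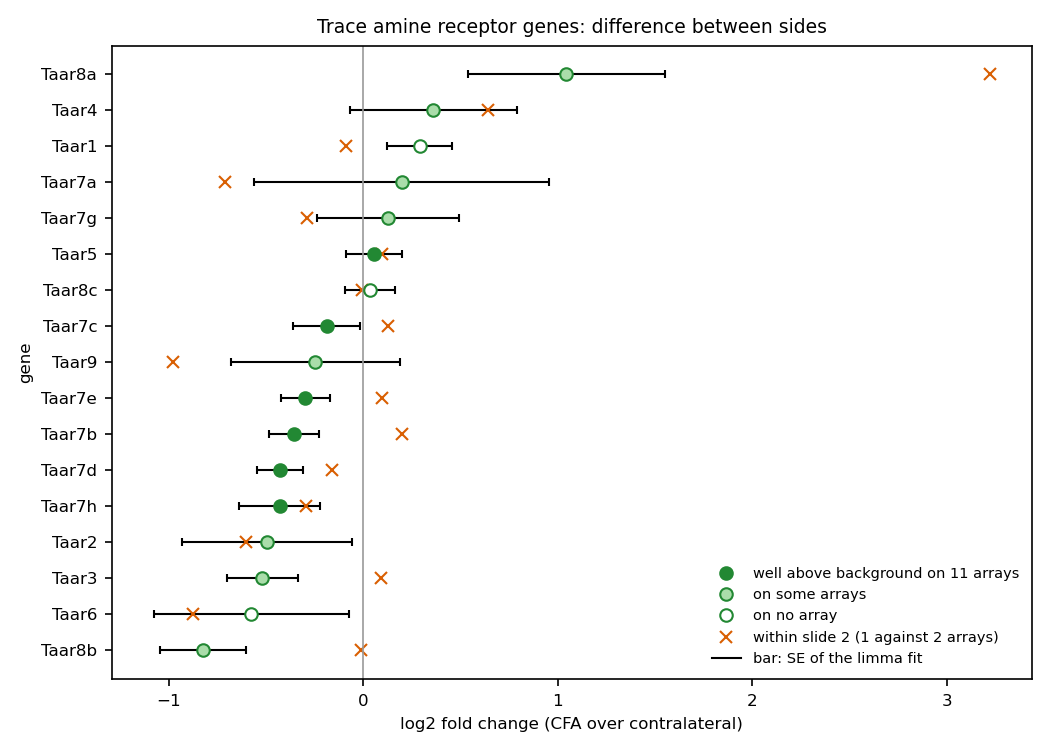
Log2 fold change of CFA over contralateral (x axis) with the SE of the limma fit for the 17 Taar genes (y axis), filled dark where the probe was detected on all 11 arrays, pale on some and open on none, with crosses for the difference within slide 2 (1 CFA against 2 contralateral arrays). The genes detected on every array lie between -0.43 and 0.05, and Taar8a ranges from 1.04 over all arrays to 3.22 within slide 2.

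The 17 Taar genes are 17 consecutive protein-coding genes of 1 cluster in GRCr8, in the order from Taar9 to Taar1, and direction changed back and forth along it. Among all 63 pairs of members that are adjacent protein-coding genes, 31 pairs had the same sign of difference. In 2 pairs both genes were past the threshold. These were Vom2r72 with Vom2r73, which were both higher and have spots 2 rows apart, and Vom2r48 with Vom2r49, which went opposite ways from rows 66 and 171. Vom1r101 stands next to Vom1r100, which differed by 1.20 (SE 0.56, limma p = 0.0566, adjusted p = 0.469, exact permutation p = 0.0281) from row 84, and next to Vom1r102, which differed by -0.23 from row 322.

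The other genes of the vomeronasal and olfactory pathways were followed from fixed lists. Of 10 measured pheromone and odorant carriers 1 was higher and 1 lower past the threshold, which 1.15% and 0.863% of all probes passed. Obp2b, an odorant-binding protein, differed by 1.28 (SE 0.54, limma p = 0.0370, adjusted p = 0.449, exact permutation p = 0.0606) from row 26. It was detected on all 11 arrays. It read 2.86 in rat 1, 2.94 in rat 2, 4.37 in rat 3, 5.78 in rat 5 and 5.74 in rat 6 on the contralateral arrays and 5.32 to 5.99 with a median of 5.58 on the CFA arrays, where rats 5 and 6 were like the CFA side, and within slide 2 it was -0.18. Lcn1, a lipocalin of tear and von Ebner's glands, differed by -1.61 (SE 0.48, limma p = 0.00625, adjusted p = 0.332, exact permutation p = 0.0173) from row 471. It was detected on 2 CFA and 4 contralateral arrays. It read 5.41 in rat 1, 5.39 in rat 2, 5.53 in rat 3, 4.39 in rat 5 and 4.55 in rat 6 contralaterally and 2.19 to 4.91 with a median of 3.34 on the CFA side, and 0.44 within slide 2. Of 10 chaperones and trafficking proteins 1 was higher, Rtp3, of the receptor-transporting protein family, at 1.46 (SE 0.61, limma p = 0.0353, adjusted p = 0.448, exact permutation p = 0.0411) from row 26. Its probe was detected on 6 CFA and 4 contralateral arrays. Rtp3 read 2.78 in rat 1, 3.45 in rat 2, 4.97 in rat 3, 6.33 in rat 5 and 6.35 in rat 6 on the contralateral arrays and 5.96 to 6.44 with a median of 6.33 on the CFA arrays, so that rats 5 and 6 lay inside the CFA range, and within slide 2 it differed by 0.08. Rtp1, which brings odorant receptors to the cell surface, differed by 0.51 (SE 0.59, limma p = 0.402, adjusted p = 0.728, exact permutation p = 0.476), and Rtp2 was detected on none of the arrays.

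Of 8 G protein genes and 16 effectors and channels 0 passed the threshold, with 2 and 0 at an unadjusted limma p of 0.05 or less, which 10.8% of all probes had. Gnao1, the V2R partner, was detected on all arrays and differed by 0.59 (SE 0.26, limma p = 0.0485, adjusted p = 0.462, exact permutation p = 0.0758), but by -0.37 within slide 2, where its direction turned. Gnai2, the V1R partner, differed by -0.08 (SE 0.09, limma p = 0.375, adjusted p = 0.713, exact permutation p = 0.292). Adcy3, the olfactory adenylyl cyclase, differed by -0.12 (SE 0.11, limma p = 0.290, adjusted p = 0.662, exact permutation p = 0.273), and Cnga2 was detected on none of the arrays. Trpc2 and Gnal had no matched probe and were not analysed here. Of 7 genes of trace amine synthesis and breakdown 0 passed the threshold, with 2 at an unadjusted limma p of 0.05 or less against the same 10.8%. Ddc, which makes trace amines from amino acids, differed by -0.30 (SE 0.13, limma p = 0.0400, adjusted p = 0.455, exact permutation p = 0.0411), and by 0.07 within slide 2. Maob, which degrades them, differed by -0.08 (SE 0.08, limma p = 0.379, adjusted p = 0.716, exact permutation p = 0.262). The single measured formyl peptide receptor, Fpr1, differed by -0.30 and did not pass.

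The tissue label was checked against cell markers. Of 19 measured trigeminal sensory neuron markers 18 were detected on every array and 0 passed the threshold. The summed linear level of 12 satellite glia and Schwann cell markers was 774848 to 989043 on the CFA arrays and 816335 to 941197 on the contralateral arrays. Of 12 olfactory and vomeronasal neuron markers 6 were detected on every array, 5 on some and 1, Cnga2, on none. Their summed level was 23857 to 29373 on the CFA arrays and 25756 to 32991 on the contralateral arrays, so the ranges overlapped. In that list 1 gene passed, Omp, the olfactory marker protein, at 1.38 (SE 0.61, limma p = 0.0438, adjusted p = 0.458, exact permutation p = 0.0108) from row 13. It was detected on 6 CFA and 3 contralateral arrays, but not on the 2 contralateral arrays of slide 3. Omp read 2.15 in rat 1, 2.17 in rat 2, 5.03 in rat 3, 5.35 in rat 5 and 5.05 in rat 6 on the contralateral arrays and 5.21 to 5.46 with a median of 5.32 on the CFA arrays, with the 2 arrays of slide 3 lowest, and differed by 0.26 within slide 2. The part of these markers in the receptor values was not tested.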

How the data were processed

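The authors deposited the scanner output of each array (Agilent Feature Extraction 11.0.1.1 per the labels), with linear intensity values from which the software had subtracted a background, and a table of linear intensities per probe that they had quantile normalised with limma. The log2 processed signal of 42136 spots was quantile normalised here after outlier spots (1.38%) and 1417 control spots were left out, spots of a probe were averaged, and 24684 probes were tested in limma 3.58.1 (R 4.3.3) without covariates. A normalised value is thus in log2 of an intensity. No spot was saturated.

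The scanner files used hold median and not mean spot signals, so normexp (offset 50) and uncorrected intensities started from the medians. An exact permutation test (two-sided, all 462 splits of the arrays, smallest p 0.00216) was added for single values. The number of arrays limits the precision. A fold bound was set against the lowest signal well above background of each array, with each group's measured means kept beside it. Accessions were matched to RefSeq symbols (14274 of 15321 mRNA probes). RefSeq lists 397 genes of the 3 families, 200 of them protein coding, and the 131 members are all protein coding. Build GRCr8 served for names, gene order and windows only.

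Named were all Taar genes, all Vom1r and Vom2r genes past the threshold, the 4 of each family with the smallest p among those detected everywhere, genes whose sides did not overlap, and listed pathway genes past the threshold or defining their pathway. Vom1r100, Vom1r102, Taar8c as a pair of Taar8b, Fpr1, Vom2r46 and Vom2r64 were named after their values were seen. The members and lists were chosen with earlier results of these data known. Slides come from the scan headers. Both sides of a rat share its number in the labels, so rat was a block in an alternative fit, to which rat 8 with 1 side does not contribute. Deviations from the side means of the same rat correlated over all probes at -0.08 to 0.13, and in 0 of 5 rats was the own partner the most similar. Rats are separate animals. The result for 1 glial marker is not reported here. Code was tested on simulated data. Python 3.11.15, pandas 2.3.3, matplotlib 3.10.9 and Biopython 1.88 were used.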

Additional observations from a re-analysis of the deposited data

Results flagged for a closer look

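In 10 of 106 groups of arrays tested by Dixon's ratio (the gap of the most extreme array to its neighbour over the range of the group) 1 array stood apart. The cut of the ratio gives about 1 in 20 by chance for independent normal values. Genes here share arrays, and in some undetected genes most arrays of a side lie together at the bottom of the scale. The 10 of 106 therefore cannot be read against that rate. Taar8c stood apart in both groups, with CFA rat 2 highest (ratio 0.857, 1.58 against 0.99 to 1.08) and contralateral rat 1 highest (0.935, 1.41 against 0.99 to 1.02), on arrays where it was not well above background. Contralateral arrays also stood apart in Taar1 (rat 5 highest, 0.866), Vom2r72 (rat 6 highest, 0.937) and Vom2r75 (rat 6 lowest, 0.796), none of which was well above background on any array. On the CFA side the array of rat 1, on slide 2, was lowest in Taar4 (0.736, 4.21 against 5.01 to 5.30), Taar7a (0.829, 1.36 against 4.04 to 4.59) and Rtp1 (0.834, 5.30 against 6.85 to 7.16). In Taar4, Taar7a and Rtp1 the contralateral arrays of slide 2 were the lowest of their side as well. The CFA array of rat 6 was lowest in Taar7g (0.662), and that of rat 2 in Vom2r73 (0.658).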

How the results depend on the processing

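The count of 10 members past the threshold fell to 0 with normexp, with no background correction and with a floor on low values. In limma 23, 24 and 13 members then had an unadjusted p of 0.05 or less, as did 1831, 1931 and 2164 of 24684 probes. The count of members past the threshold was 5 with a filter on dim probes. It was also 5 when only calls detected on all arrays of the brighter side were counted, an alternative chosen after seeing the data. Leaving out 1 array gave 6 to 13 members, with 6 without contralateral rat 2. With the rat as a replicate block it was 7, of which 6 were shared with the 10 and Vom2r46 was added, and with the rat as a random block it was 10. The remaining settings gave 8 to 11. Over all probes the count of 498 became 16 with normexp, 47 without background correction, 314 with the dim filter, 130 with the floor, 313 with the row trend removed within 3 parts by signal, 233 with slide as a random block and 306 with detection on the brighter side. Leaving out 1 array gave 330 to 796 probes, with 330 without contralateral rat 1, 771 without rat 5 and 796 without rat 6. The median of the members, -0.11, was -0.0125 with normexp, 0 with the floor, and 0.00390 with slide as a block or within slide 2. Of the named genes past the threshold, direction turned with slide as a block, and equally within slide 2, for Vom2r73 (-0.0322), Lcn1 (0.44) and Obp2b (-0.18). Of the named genes not past it, direction turned among others for Gnao1 (-0.37), Taar3 (0.09), Taar7b (0.20), Taar7e (0.10) and Ddc (0.07). With slide as a block 1 member, Vom2r64, which was detected on no array, passed an adjusted p of 0.05, as did 69 of 24684 probes, and with scan day as a block 1 member and 35 probes did. The causes were not tested. Each member has 1 probe, so counting every probe of a gene changed nothing. Most members are near background, so depth of signal limits their folds.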
